A study of Mus musculus with 5 samples.

Results

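Of 9930 genes named on the array, 10 enzymes of cholesterol synthesis were followed in the livers of eyeless mice: Hmgcs1, Pmvk, Fdps, Fdft1, Sqle, Msmo1, Ebp, Sc5d, Tm7sf2 and Dhcr7. They were chosen by their measured log2 ratios, which moved together from animal to animal. Their co-variation and their levels are therefore given as a description and were not tested. On replicate 1 of the 5 arrays, 9 of the 10 enzymes lay above the wild-type pool. On replicates 2 and 3, 8 and 9 of them lay below it, but replicate 3 was a dye swap, and with the sign of the swapped arrays turned 9 would lie above. No difference between mutant and pool was called for any of them, nor for any other of the 6706 genes tested (0%).

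The study profiled the liver of 5 male mice of the line labelled Pitx3eyl-/-, 17 weeks old, with 1 two-colour cDNA array per animal. Pitx3 is a homeobox gene needed in the lens and in dopamine neurons of the midbrain, and all 5 mutant animals carried the eyeless allele in both copies. The other channel of every array held 1 RNA pool from wild-type mice, described as 4 mice in the sample labels and as 6 animals in the labelling protocol. The mutant RNA was in Cy5 on replicates 1, 2 and 4 and in Cy3 on replicates 3 and 5. The genetic background, the animals' feeding state and the time of day of sampling are not stated in the labels. No single wild-type animal was compared with the pool, so the spread between wild-type livers is not part of any error below. A positive log2 ratio is read as higher in the mutant. The labels and the dye pattern make this direction likely but do not settle it. Across genes, the Pearson correlation between arrays of opposite dye orientation ran from -0.21 to -0.02. Between arrays of the same orientation it ran from -0.04 to 0.10. The source of this pattern was not tested.

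Cholesterol is built from acetyl-CoA, and the liver is a main site of its synthesis. HMG-CoA synthase (Hmgcs1) and phosphomevalonate kinase (Pmvk) act on the way from acetyl-CoA to isoprenoid units, and Fdps joins these units into farnesyl diphosphate. Fdft1 condenses farnesyl diphosphate to squalene and Sqle oxidises squalene. Msmo1, Tm7sf2, Ebp, Sc5d and Dhcr7 then remodel lanosterol into cholesterol. When membranes are low in sterol, the transcription factor SREBP2 (gene Srebf2) leaves the endoplasmic reticulum with SCAP. It is then cut by the site-1 and site-2 proteases and activates genes of the pathway together with NF-Y and SP1.

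Promoter sequences are shown because these enzymes are textbook targets of 1 regulator. RefSeq promoter windows (GRCm38.p6, 250 bases before to 50 bases after a start site) were held for 7 of the 10 enzymes, with 10 windows in all. Fdps, Fdft1 and Sqle had no entry. A sterol regulatory element of the form TCACNCCAC was looked for on both strands, as were the NF-Y box CCAAT, the SP1 box GGGCGG and the E box CACGTG. Only the Hmgcs1 window held the sterol element form, which is present in 1.24% of all 32851 windows. Its first base lies 137 bases before the start site. A CCAAT box was found for 7 of 7 enzymes, in 7 of their 10 windows, against 37.4% of all windows. A GGGCGG box was found for 6 enzymes, in 7 windows (35.7% of all), and CACGTG for Dhcr7 and Sc5d (7.15% of all). Such matches are letters in a window and not measured binding.

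The 250 bases before the start site are printed 5′ to 3′ for Hmgcs1 (chr13:119690101-119690350, plus strand), since it held the sterol element form. Msmo1 (chr8:64733579-64733828, minus strand) is set beside it, chosen after the matches were seen, because it held 3 CCAAT boxes and no sterol element form. Capitals mark the sterol element form TCACCCCAC and the CCAAT boxes, which read ATTGG on the other strand.
Hmgcs1: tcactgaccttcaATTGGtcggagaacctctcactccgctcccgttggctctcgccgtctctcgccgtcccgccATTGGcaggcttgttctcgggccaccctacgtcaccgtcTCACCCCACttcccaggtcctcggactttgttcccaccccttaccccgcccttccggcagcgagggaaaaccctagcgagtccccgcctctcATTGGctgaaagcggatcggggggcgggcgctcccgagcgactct
Msmo1: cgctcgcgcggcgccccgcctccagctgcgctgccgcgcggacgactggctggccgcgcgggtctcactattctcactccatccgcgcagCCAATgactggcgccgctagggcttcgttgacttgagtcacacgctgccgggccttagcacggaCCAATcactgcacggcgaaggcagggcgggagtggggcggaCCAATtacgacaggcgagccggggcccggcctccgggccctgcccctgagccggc

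Each enzyme had a value on all 5 arrays, as did 4545 genes in all (45.8% of the named genes). The enzymes were read from 11 probes, 2 of them for Hmgcs1. Between 66.7% and 78.1% of the 20355 probes had a measured value on an array. The medians over all measured probes were -0.19, -0.04, -0.00, 0.11 and 0.23 on replicates 1 to 5. Over the genes measured on all arrays they were -0.00, -0.02, -0.04, -0.02 and 0.15. Of the enzymes' 53 probe values, 12 (22.6%) lay at a ratio of whole numbers up to 20, against 21.4% to 30.8% of all values on an array.

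The median log2 ratio of the 10 enzymes was 0.55, -0.42, -0.40, 0.15 and 0.14 for animals 1 to 5, in replicate order. From the lowest to the highest array this is a range of 0.97, or 1.96-fold, while the median of the 4545 genes measured on all arrays had a range of 0.19. Replicate 1 carries much of that range, which was 0.57 without it. The 2 arrays with medians near -0.4 were of opposite dye orientation, as were the 2 with medians near 0.14. On replicate 5 the median enzyme sat at the median of all genes, -0.01 away from it, and with arrays centred on their medians its value was -0.09. Centring gave 0.74 on replicate 1 and 0.03 on replicate 4. With whole-number ratios left out, the median was 0.93 on replicate 1 and -0.05 on replicate 4. That setting removed 12 of the enzymes' 53 probe values, so a median can rest on fewer enzymes. On replicate 1 it removed Pmvk and Msmo1, which both lay under the median there. Less enzyme mRNA per cell and fewer cells that express it cannot be told apart in whole liver RNA.

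**Figure D1:**
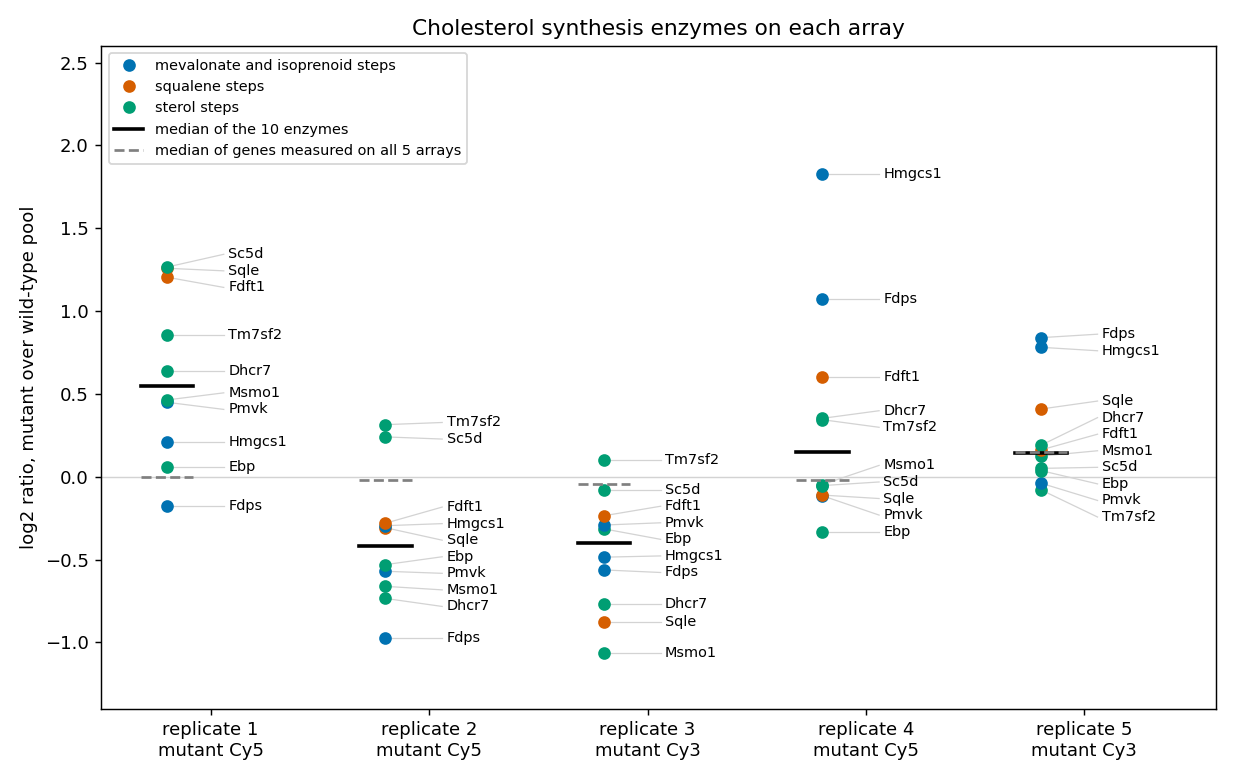
Log2 ratio of mutant over wild-type pool (vertical axis) for the 10 enzymes on each of the 5 arrays (horizontal axis, with the dye of the mutant RNA). Points are enzymes coloured by pathway step, black bars are their median and dashed bars the median of the 4545 genes measured on all arrays; the enzymes' median is 0.55 on replicate 1 and near -0.4 on replicates 2 and 3.

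Counted by sign, 9 of the 10 enzymes lay above 0 on replicate 1, where 49.8% of all genes measured on all arrays did. Only Fdps was below. Below 0 were 8 enzymes on replicate 2 (51.2% of all genes) and 9 on replicate 3 (52.7%). Tm7sf2 was above 0 on both, and Sc5d on replicate 2. Replicate 4 was divided, with 5 above and 5 below. On replicate 5, 8 were above 0, but so were 59.7% of all genes, and against the array's median over those genes the enzymes were split 5 and 5.

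Set against its own mean over the 5 arrays, every one of the 10 enzymes was low on replicate 3 (54.7% of all genes were), and 9 were low on replicate 2 (53.2%). With the swapped arrays turned, 3 were low on replicate 3, 9 on replicate 2 and 8 on replicate 5, so the shared low on replicate 3 rests on the likely direction of the ratios. On replicate 1, 8 enzymes were above their own mean (46.9% of all genes), the exceptions being Hmgcs1 and Fdps. Those 2 had their highest value on replicate 4 instead. For Hmgcs1 both statements hold for the mean of its 2 probes. Its probe measured on all arrays was above its own mean on replicate 1 and highest on replicate 5. The other 8 enzymes had theirs on replicate 1, where 22.3% of all genes peak. Replicate 3 held the lowest value of 5 enzymes (19.8% of all genes), replicate 2 that of 4 (20.7%), and replicate 5 that of Tm7sf2 (13.1%).

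**Figure D2:**
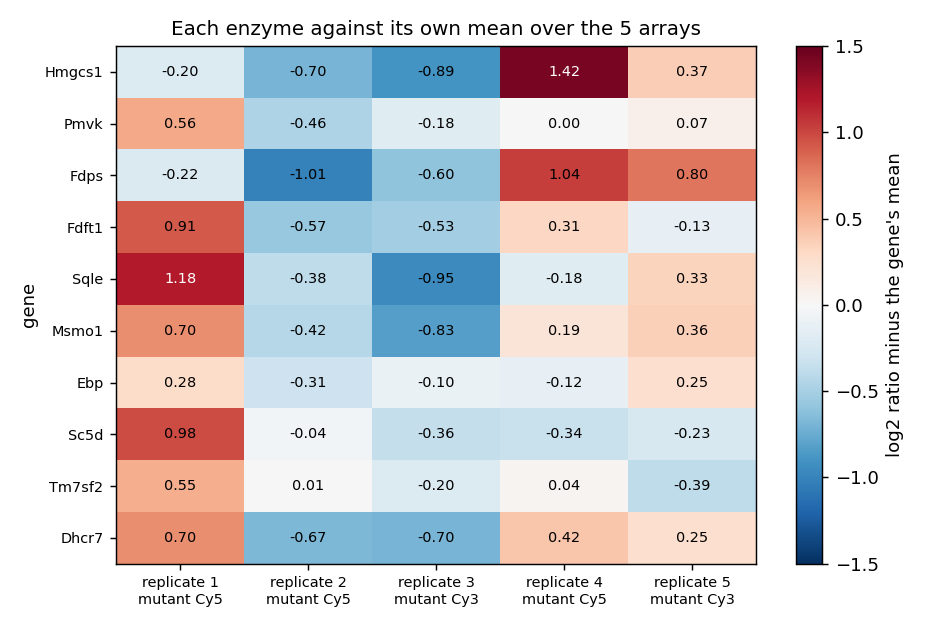
Log2 ratio of each enzyme minus its own mean over the 5 arrays, with enzymes as rows in pathway order, arrays as columns and the value in each cell. The column of replicate 3 is below 0 for all 10 enzymes and that of replicate 1 above 0 for 8.

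The enzymes also lay close to each other within an array. Their SD was 0.52, 0.41, 0.37, 0.67 and 0.33 in replicate order. Over the 4545 genes the SD of an array was 1.05 to 1.32. On replicate 5, 10 of 10 enzymes were within 2-fold of each other, from -0.08 for Tm7sf2 to 0.84 for Fdps. Replicate 4 spread them most, from -0.34 for Ebp to 1.83 for Hmgcs1. Both statements rest on the mean of the 2 Hmgcs1 probes. The Hmgcs1 probe measured on all arrays stood at 1.38 on replicate 5 and 1.02 on replicate 4. With that probe the enzymes were not all within 2-fold on replicate 5. Over the 45 pairs of enzymes, the root mean square difference of the own-mean profiles had a median of 0.46, against 1.17 over all pairs of the 4545 genes, of which 8.02% were at or under 0.46. A small difference is also reached by 2 genes that vary little, and the enzymes' SD over arrays had a median of 0.62, against 0.80 for all genes.

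**Figure D3:**
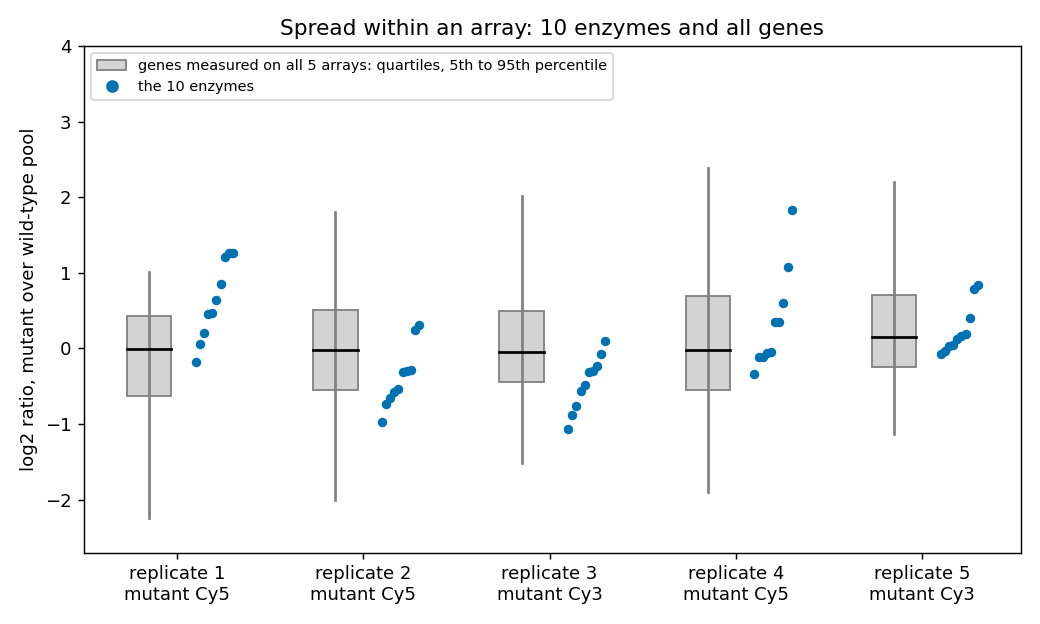
Log2 ratio of mutant over wild-type pool on each array for the 10 enzymes (points) beside the 4545 genes measured on all arrays (box for the quartiles, bar for the median, line for the range left when the lowest and the highest 5% of genes are set aside). The enzymes lie inside that line except Fdft1, Sqle and Sc5d on replicate 1, which lie above its upper end.

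Of the 3 mevalonate and isoprenoid enzymes, Hmgcs1 and Fdps were highest on replicate 4 and Pmvk on replicate 1. Hmgcs1 had log2 ratios of 0.21, -0.30, -0.49, 1.83 and 0.78 on replicates 1 to 5. It was high on replicate 4, with an SD of 0.93 over arrays. Fdps, which makes farnesyl diphosphate, stood at -0.18, -0.97, -0.56, 1.08 and 0.84. Like Hmgcs1, it had its highest values on replicates 4 and 5. Pmvk, between these enzymes in the pathway, stood at 0.45, -0.57, -0.29, -0.12 and -0.04. Its profile was the nearest of the 10 to the group's median profile, with a root mean square difference of 0.17.

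The value of Hmgcs1 joins 2 probes of the same RefSeq transcript that did not match. The probe measured on all arrays gave 0.93, -0.30, -0.49, 1.02 and 1.38. The other gave -0.51 on replicate 1, 2.63 on replicate 4 and 0.18 on replicate 5. On these 3 arrays the probes differed by 1.19 to 1.61. Both were above 0 on replicates 4 and 5, but the array with the highest value was replicate 5 for one and replicate 4 for the other. The remaining 9 enzymes rest on 1 probe each, so no such comparison can be made for them.

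Both squalene enzymes were high on replicate 1. Fdft1, squalene synthase, had log2 ratios of 1.20, -0.28, -0.24, 0.60 and 0.16 on replicates 1 to 5. Sqle, squalene epoxidase, which is a rate-controlling enzyme of the later pathway, stood at 1.26, -0.31, -0.88, -0.11 and 0.41. Its lowest and highest arrays were 2.14 apart, or 4.40-fold, between replicates 1 and 3, which differ in dye orientation as well as in animal. With the swapped arrays turned the range of Sqle was 1.67. For Hmgcs1 the range was 2.31 as the mean of its probes and 1.86 for the probe measured on all arrays, so whether Sqle or Hmgcs1 varied more depends on the probes used.

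The 5 sterol enzymes ranged in SD over arrays from 0.26 for Ebp to 0.65 for Dhcr7. Msmo1, the C4-methyl sterol oxidase, had log2 ratios of 0.46, -0.66, -1.06, -0.05 and 0.12. Dhcr7, which catalyses the last step of the Kandutsch-Russell branch, stood at 0.64, -0.74, -0.77, 0.35 and 0.19. Their own-mean profiles differed by a root mean square of 0.17, the least of the 45 pairs. Both were low on replicates 2 and 3 and high on replicate 1.

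Ebp, the sterol isomerase, stood at 0.06, -0.53, -0.32, -0.34 and 0.04, and its SD of 0.26 was the smallest of the 10. At or under that SD were 5.15% of all genes. Tm7sf2, a sterol C14-reductase, stood at 0.85, 0.31, 0.10, 0.34 and -0.08, above 0 on 4 of 5 arrays. It was the only enzyme whose lowest value was on replicate 5. Sc5d, the C5-desaturase, stood at 1.27, 0.24, -0.08, -0.05 and 0.05. Its replicate 1 value lay far from the other 4, and the pair farthest apart was Hmgcs1 with Sc5d, at a root mean square of 1.06. That value uses the mean of the 2 Hmgcs1 probes, and Fdps with Sc5d came next at 1.04.

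In the fit over the animals, no enzyme differed from the wild-type pool by more than its standard error. These errors were 0.27 to 0.44, so the fit does not show that the levels were equal. limma fitted an intercept, called the mutant coefficient, and a dye term to 6706 genes. At a Benjamini-Hochberg adjusted p under 0.05 it called 0 genes (0%) and so 0 of the 10 enzymes. The lowest adjusted p from limma was 0.998. At an unadjusted p under 0.05 there were 264 genes (3.94%) and 0 of the enzymes. The enzymes' values chose them, so nothing is read from these counts. Their coefficients ran from -0.28 ± 0.34 (SE, n = 5 arrays) for Msmo1 to 0.36 ± 0.44 for Hmgcs1, which is 0.83-fold to 1.29-fold.

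Of the enzymes' coefficients, 6 were above 0 and 4 below, and 53.7% of all genes tested had a coefficient above 0. The enzymes' median was 0.04, and the median over all genes tested was 0.03. The sign of the enzymes' median was not stable: it was -0.09 without replicate 1, -0.03 without replicate 4 and -0.24 without replicate 5. The squalene enzymes had coefficients of 0.24 ± 0.34 for Fdft1 and 0.02 ± 0.39 for Sqle. Tm7sf2 stood at 0.26 ± 0.27 and Sc5d at 0.23 ± 0.32. Pmvk had -0.12 ± 0.30, Ebp -0.20 ± 0.28, Dhcr7 -0.10 ± 0.35 and Fdps 0.06 ± 0.43. No enzyme had 1 sign on all 5 arrays (0 of 10, against 5.65% of all genes).

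The dye term of the enzymes was of a size with the mutant coefficient. It ran from -0.08 for Fdps to 0.27 for Fdft1, above 0 for 8 of 10 enzymes, and for 5 of them it exceeded the size of the mutant coefficient. The matching shares of all genes tested were not counted, so nothing about the enzymes is read from these counts. The standard errors of the dye term were those of the mutant coefficient, 0.27 to 0.44.

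**Figure D4:**
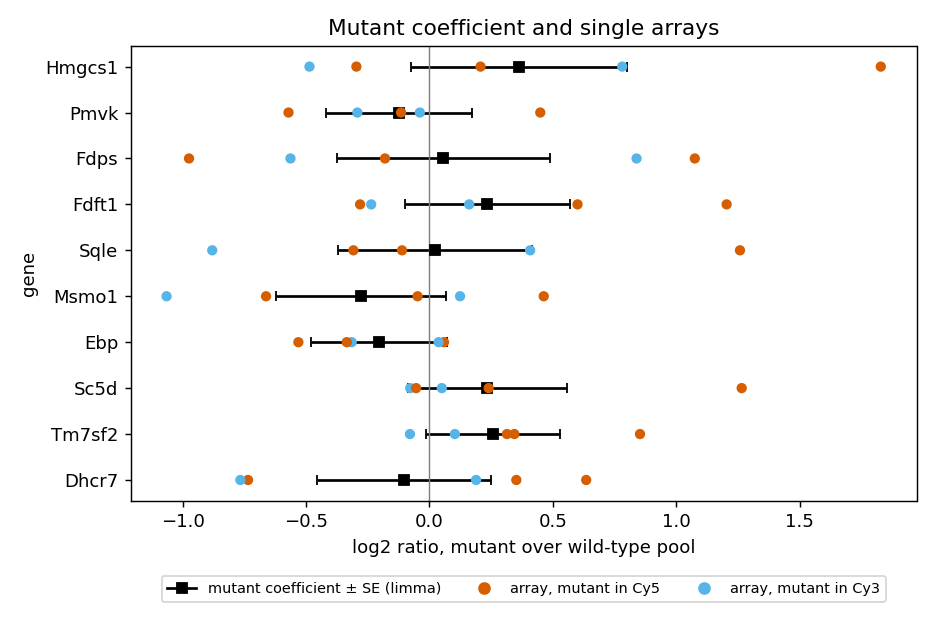
Mutant coefficient of each enzyme (square, bar for its SE from limma, n = 5 arrays) with the single arrays as circles coloured by the dye of the mutant RNA; the horizontal axis is the log2 ratio of mutant over wild-type pool. The bars of all 10 enzymes cross 0, and each enzyme has arrays on both sides of 0.

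The other enzymes of the pathway could hardly be followed. Of 12 listed, 5 were measured on any array, 0 on all 5, and 1 (Lbr) could be tested; 0 were called higher and 0 lower. Mevalonate kinase, Mvk, had -2.60 on replicate 2 and 0.46 on replicate 4. Mvd, mevalonate diphosphate decarboxylase, had -4.03 on replicate 3 and 0.46 on replicate 4. The prenyl synthase Ggps1 had 0.39 on replicate 4 alone. The lanosterol demethylase Cyp51 had -2.81 on replicate 2 and -0.08 on replicate 3. The value of Mvk on replicate 4 sits at that array's constant, from which its whole-number ratios are counted. The only value of Ggps1 also lay at a whole-number ratio, as did 1 probe value each of Cyp51 and Lbr. None of the 5 enzymes had a value on replicate 1, where 8 of the 10 were highest. Lbr, a nuclear envelope protein with the same sterol reductase activity as Tm7sf2, ran from -3.59 on replicate 2 to 4.75 on replicate 4, with a coefficient of -0.04 ± 1.44. It was below 0 on replicates 2, 3 and 5, at -0.25 on replicate 3 and -1.08 on replicate 5, and its values were spread far wider than those of the 10 enzymes.

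Among genes of sterol sensing, Srebf2 and Insig2 were measured on all arrays, and their highest values fell on different ones. Srebf2 had log2 ratios of -0.21, 0.52, -0.34, -0.56 and -0.58 on replicates 1 to 5. It was thus highest on replicate 2, where 8 enzymes were below 0. Insig2, an anchor of SCAP in the endoplasmic reticulum, stood at 0.78, -0.00, -0.26, 0.60 and -0.34, highest on replicate 1 as 8 of the enzymes were. Scap, the escort protein of SREBP2, stood at 4.46, 2.18, 2.50 and 1.68 on replicates 1, 2, 3 and 5. It was above 0 on all 4 arrays that measured it, with a coefficient of 2.70 ± 0.51, and limma's adjusted p was 0.998. The site-1 protease gene Mbtps1 had -2.25 on replicate 1 and 1.85 on replicate 2. Scarb1, the HDL receptor, had -0.11, -0.94 and 1.46 on replicates 1, 2 and 4. Of the 13 genes of the list 5 were measured and 3 tested, and 0 were called in either direction.

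Fatty acid synthesis, driven by the related factor SREBP1, was better covered. Of 15 genes, 14 were measured and 11 tested, 5 with a coefficient above 0 and 6 below; 0 were called higher or lower, and the median coefficient was -0.01. Acly, which supplies cytosolic acetyl-CoA to both pathways, stood at 0.52, -1.06, -0.91, 0.93 and -0.62. It was low on replicates 2 and 3 like the enzymes, but also on replicate 5. Scd1, the stearoyl-CoA desaturase, stood at -0.19, -0.34, -0.14, 1.35 and 0.12, and Fads1 at -1.32, -0.78, -1.11, 0.31 and 0.25. Both were highest on replicate 4, as were Fdps and the mean of the Hmgcs1 probes. Thrsp, a lipogenic gene, stood at -0.50, -1.82, -1.54, 0.01 and -1.29. Elovl6, a fatty acid elongase, ran the other way, with 0.60 and 1.06 on replicates 2 and 3 and -1.28 on replicate 4. Per array, the median of the measured genes of the list was -0.51, -0.08, -0.20, 0.31 and 0.22. On replicate 1 this median lay below 0, where that of the cholesterol enzymes lay above. Of the 12 genes measured there, Acly, Elovl5 and Me1 were above 0, at 0.52, 0.99 and 1.07, and the others below. Elovl5 and Me1 had their highest values on replicate 1, as most of the cholesterol enzymes did.

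**Figure D5:**
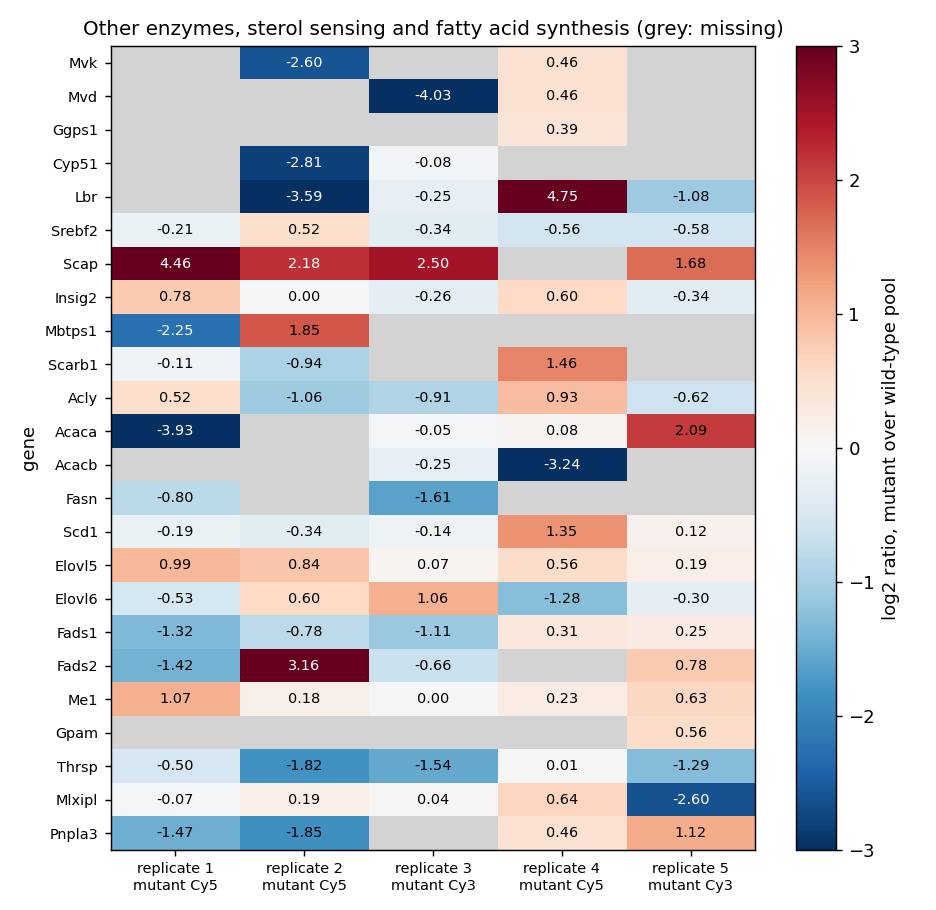
Log2 ratio of mutant over wild-type pool for genes of the pathway's other enzymes, of sterol sensing and of fatty acid synthesis (rows) on the 5 arrays (columns), with the value in each cell, missing values in grey and colours saturating at 3. The other pathway enzymes, in the top rows, are mostly missing, and Scap is above 0 on the 4 arrays that measured it.

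Of 10 genes of sterol export and bile acid synthesis, 5 were measured and tested, 1 with a coefficient above 0 and 4 below, and 0 were called. Nr1h3, the sterol-sensing receptor LXR alpha, stood at 0.24, -0.35, -0.12, 0.18 and -0.15. It was above 0 on replicates 1 and 4 only. Cyp27a1, a sterol hydroxylase, stayed between -0.43 and 0.04. Of the ketogenesis and fasting list, Bdh1 and Ppara were measured among 10 genes, at 0.53 ± 0.27 and 0.29 ± 0.29, and 0 were called.

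The genes nearest to the enzymes' median profile were looked for among the other 4535 genes measured on all arrays, by root mean square difference over the 5 arrays. Fhdc1 was nearest at 0.10, followed by Xbp1, a transcription factor of the unfolded protein response, at 0.11. Rpl19, a ribosomal protein gene, Ift27 and Akr1b8 followed at 0.12 each. Xbp1 stood at 0.35, -0.45, -0.47, 0.07 and 0.03. All 5 were above 0 on replicate 1 and below 0 on replicates 2 and 3, which follows from their selection by closeness to that profile. The median of the 10 enzymes' own differences from that profile was 0.39, and 11.6% of all genes were at or under it. For Hmgcs1, as the mean of its 2 probes, the difference was 0.82, and 44.6% of all genes were at or under it.

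Markers of liver cell types were read for the same arrays. Log2 ratios hold no level, so the tissue can be checked only by which markers were measured. Of 8 hepatocyte markers 6 were measured, and Alb, Apoa1, Ttr and Ass1 had values on all 5 arrays. The median of the measured ones per array was -0.22, -0.90, -0.26, 0.12 and -0.08 on replicates 1 to 5. It was thus lowest on replicate 2, where 4 of the markers were measured, while Alb, albumin, stayed between -0.34 and 0.08 and Apoa1, an apolipoprotein of HDL, ran from -3.75 to 1.10. Kupffer cell markers (4 of 7 measured) had array medians from -0.73 to 1.74, stellate cell markers (5 of 6) from -0.65 to 1.73 and bile duct markers (4 of 5) from -1.44 to 1.79. Lymphocyte markers (4 of 7) ran from 0.03 to 1.95, red cell markers (3 of 6) from 0.11 to 0.92, and endothelial markers (3 of 5) from -0.78 to 0.97 on 4 arrays. The part of cell composition in the enzymes' values was not tested.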

How the data were processed

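Liver RNA of 5 mutant mice, each a separate animal per the labels, was hybridised beside a wild-type pool. The authors deposited log2 ratios per probe (the scale was read from the values). Scanner, background correction, normalization: not given in the sources used here. Values over 12 in size (788, the same value throughout an array, positive with the mutant in Cy5 and negative in Cy3) were read as codes and set to missing. From their sign the swapped arrays were read as already turned. Of 20355 probes, 14030 carried 1 symbol in the platform's annotation; the names of single rows were not checked against sequence. Probes of a gene were averaged. Genes needed at least 4 arrays and both dye orientations. limma (version 3.58.1, R 4.3.3) was used with lmFit and eBayes, with Benjamini-Hochberg adjustment over 6706 genes, and was tested on simulated data. Because no wild-type animal was hybridised alone, the ratio was tested against 0. Precision is limited by the number of arrays. With 5 arrays no correlation between genes over the arrays is given.

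The 10 enzymes and the gene lists were chosen with earlier results of these data known. Named in the text are all 10 enzymes, the measured genes of the list of other pathway enzymes, the 5 closest genes by root mean square difference, and examples from the further lists, which the rule did not name and which were chosen after their values were seen. Promoters were to be printed where they held the sterol element form. Alternatives were kept codes, centred arrays, no dye term, other array minimums, probes as units, 1 probe per gene, turned signs of the swapped arrays, whole-number ratios (up to 20, tolerance 0.0011) left out, and each replicate left out. No value column was unused (0 columns).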

Additional observations from a re-analysis of the deposited data

Results flagged for a closer look

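Among 32 genes or summaries checked on the 5 arrays, 3 had 1 array apart from the other 4, with a gap that was a large share of the whole range. For independent normal values the rule flags about 1 in 20. The 32 include enzymes chosen by these same values, so nothing is read from the count. For Sc5d the gap was 0.763 of the range, with 1.27 on replicate 1 and -0.08 to 0.24 on the others. Sc5d was chosen by these same values, so its gap is a description and not a test. For Scd1 it was 0.729, with 1.35 on replicate 4. For Mlxipl, a glucose-sensing lipogenic factor, it was 0.78, with -2.60 on replicate 5. The cause was not tested.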

How the results depend on the processing

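limma called 0 genes under each other setting run for the whole table; its lowest adjusted p was then between 0.214 (codes kept) and 0.999, and 3.22% to 7.10% of the features had an unadjusted p under 0.05. The last share belongs to the sign of the swapped arrays being turned, under which the enzymes' median on replicate 3 became 0.40 and on replicate 5 -0.14. With whole-number ratios left out, which drops some enzymes from single arrays, the range over arrays was 1.35. With 1 probe per gene the range was 1.16, and with centred arrays 1.14. The enzymes' median coefficient lay between -0.24 and 0.24 when 1 replicate was left out, and was 0.21 with turned signs. Of 98 alternative values of single enzymes, 14 had the other sign, for Dhcr7, Fdps, Msmo1, Pmvk and Sqle, and 0 moved by more than the enzyme's SD over arrays. No paired analysis was possible because there is 1 group of arrays. Signal over background is unknown here.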
